A study of Mus musculus with 9 samples.

Results

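The E2F and retinoblastoma families were followed through 10 of the 50600 genes in the deposited tables, chosen by symbol: the E2F genes E2f1, E2f2, E2f3, E2f4, E2f6, E2f7 and E2f8 and the pocket protein genes Rb1, Rbl1 and Rbl2. The cells were RAW-Blue, a mouse macrophage line, and RNA was sequenced in bulk. The groups compared here were LPS, given lipopolysaccharide at 1 µg/ml for 24 hours, and None, with no stimulus, each with 3 libraries. RAW-Blue is an immortal reporter line, and both groups were grown with Normocin and Zeocin in the medium. A further labelled group, LPS-PjELNs, given plant vesicles for 16 hours before LPS, was not analysed here. Nothing in the labels says that libraries came from separate cultures, so p-values measure the spread between these libraries, which may be technical. All 10 members passed the filter on low counts. Levels are given as CPM, each gene's counts relative to the library's total after TMM scaling, which sets libraries against each other through most of their genes. Levels of different genes are compared in TPM, which also allows for transcript length. "Called" means an adjusted p under 0.05 in edgeR's quasi-likelihood test across 11916 genes.

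E2F proteins are transcription factors that bind sites in the promoters of genes for DNA replication and cell division, most of them as dimers with a DP protein. Pocket proteins, named after the region that grips E2F, hold these promoters silent in resting cells. Cyclin-dependent kinases phosphorylate the pocket proteins and release E2F when a cell commits to dividing. E2f1, E2f2 and E2f3 encode activators, E2f4 a factor that mostly represses together with the pocket proteins, and E2f6 a repressor that works with Polycomb proteins without them. E2f7 and E2f8 encode atypical repressors that need no DP partner and are themselves switched on by activator E2Fs. Macrophage lines such as this one divide continuously in culture.

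LPS-stimulated cells had lower transcript levels of all 3 pocket protein genes, of the activator gene E2f2 and of the atypical repressor genes E2f7 and E2f8. The steepest falls were those of E2f7 (3.33-fold) and E2f8 (2.63-fold), followed by Rbl2 (1.95-fold), E2f2 (1.80-fold), Rbl1 (1.62-fold) and Rb1 (1.25-fold). E2f1 was 1.33-fold higher, a call lost under library totals and on TPM values, and E2f3, E2f4 and E2f6 were not called. By direction, 6 of 10 members were called lower against 35.1% of all genes tested, and 1 was called higher against 34.0%. The total of 7 called members stands beside 69.1% of all genes called in either direction, so the share called is near the background. At least 2-fold lower calls were made for 2 members (E2f7 and E2f8), against 11.8% of all genes. CPM ranges of the groups did not overlap for 8 of 10 members, against 73.6% of all genes. The median log2 fold change of the 10 members was -0.51, and that of all genes tested was -0.03. Without LPS replicate 1, which lay apart from the other LPS libraries on the second principal component (3.23% of the variance), 6 members were again called lower, against 33.5% of all genes, and 1 higher, against 32.8%. In bulk RNA, fewer cells in cycle and less of a transcript in each cell cannot be told apart.

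**Figure D1:**
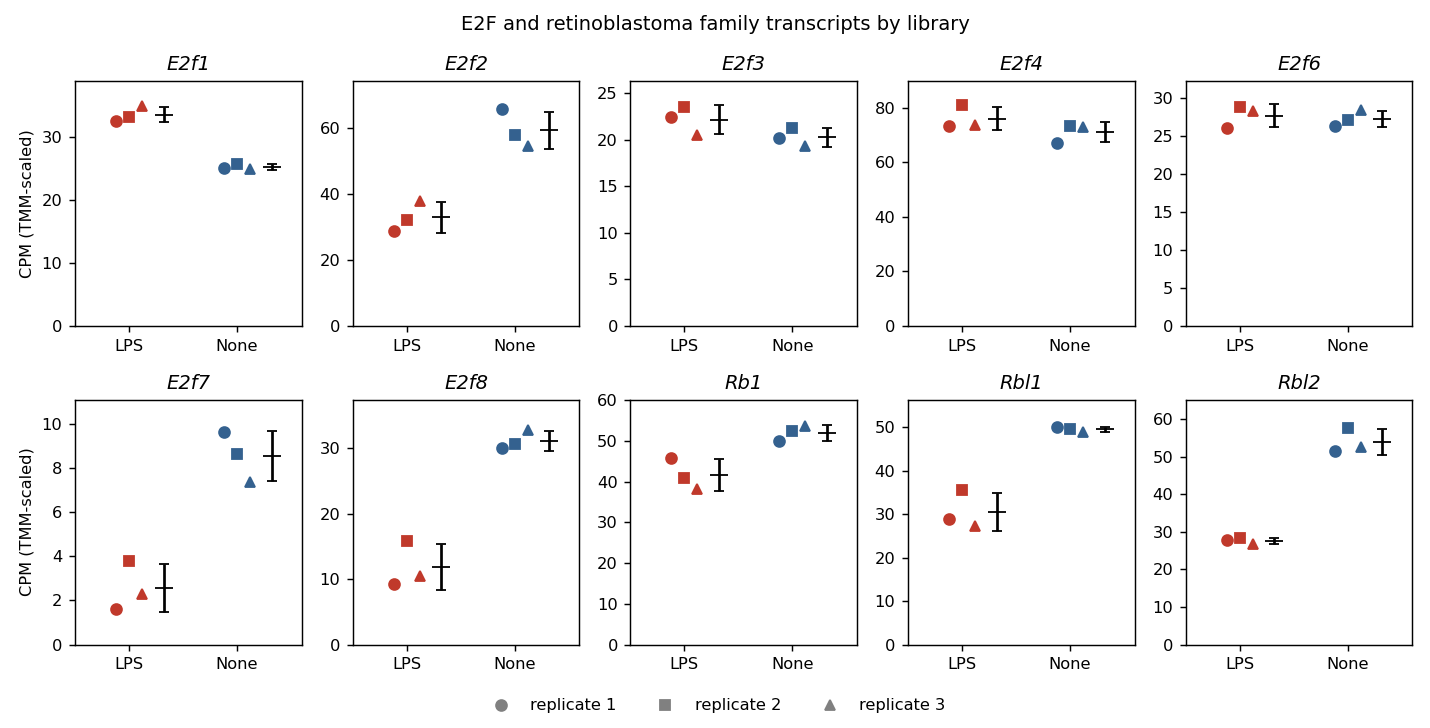
Level of each member in CPM, on a linear axis from 0, in the 3 LPS libraries (red, left) and the 3 None libraries (blue, right); symbols mark the replicate number and bars the mean and SD. The groups lie apart for E2f2, E2f7, E2f8, Rb1, Rbl1 and Rbl2, with LPS lower, and for E2f1, with LPS higher, while E2f3 and E2f6 overlap.

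The depth of the libraries ran from 14650843 to 17665200 counts, and the 10 members together held 4158 to 7809 of them. Scaling by library totals alone moved the log2 fold changes of all genes by a median of -0.26, and TPM values moved them by -0.20, so small changes are read relative to those shifts. Of 9 macrophage markers 8 had at least 10 counts, Mertk being the exception with 2 counts in all. Markers of T, B, fibroblast, epithelial and endothelial cells summed to at most 7.12 TPM per list in any library, with, among others, Cd3e, Cd3d, Cd8a, Ms4a1, Col1a2, Epcam and Krt8 at 0. The T cell list summed to 3.92 to 7.12 TPM in LPS and 1.44 to 2.10 TPM in None. Its LPS sum was Lck alone, and Cd4 held 0 counts in LPS and 4 in None. Whether any such cells were present, and their part in the members' values, was not tested. The macrophage list summed to 17240 to 18850 TPM in LPS and 11050 to 12780 TPM in None, most of it Lyz2, the lysozyme gene. Without Lyz2 the list went the other way, with 1659 to 1681 TPM in LPS and 1867 to 2186 TPM in None. Of its 8 tested genes 3 were called higher (Itgam, Lyz2 and Fcgr1) and 2 lower (Csf1r and Ptprc), and their part in the members' values was not tested.

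Among the activators, E2f1 (chromosome 2, 154559407 to 154569892, GRCm38) had 32.5, 33.2 and 34.8 CPM in LPS libraries, against 25.0, 25.7 and 24.9 CPM in None libraries. Every LPS library lay above every None library, and the spread within groups was small. The log2 fold change of E2f1 was 0.41 ± 0.08 (SE), and edgeR's quasi-likelihood test gave it an adjusted p of 0.000675. That call depended on the scaling: with library totals the log2 fold change was 0.15 and the adjusted p by edgeR 0.124, and on log2(TPM + 1) it was 0.17 with an adjusted p by limma of 0.0906. E2f1 is the founding member of the family, able to drive entry into DNA synthesis and, when unrestrained, cell death.

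E2f2 (chromosome 4, 136172394 to 136196057) had 28.6, 32.02 and 38.0 CPM in LPS libraries, against 65.5, 57.7 and 54.6 CPM in None libraries. All LPS values lay below all None values. The log2 fold change of E2f2 was -0.85 ± 0.11 (SE), and edgeR's quasi-likelihood test gave it an adjusted p of 1.62e-05. In LPS the E2f2 transcript was less abundant per length than that of E2f1, with 7.68 ± 0.935 TPM for E2f2 beside 14.2 ± 0.327 TPM for E2f1 (SD, n = 3). In None the order was the other way, with 16.2 ± 1.72 TPM for E2f2 and 12.5 ± 0.431 TPM for E2f1. The log2 ratio of E2f1 over E2f2 within a library does not depend on how libraries are scaled. It was 1.04, 0.91 and 0.73 in LPS libraries and -0.54, -0.31 and -0.28 in None libraries, on TPM values. The groups did not overlap, and the exact two-sided permutation p was 0.1, the smallest that 3 against 3 libraries allow.

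E2f3 (chromosome 13, 29906575 to 29986063), whose gene makes long and short protein forms from separate starts, had 22.5, 23.5 and 20.5 CPM in LPS libraries, against 20.2, 21.3 and 19.3 CPM in None libraries. The ranges overlapped. The log2 fold change of E2f3 was 0.13, with a 95% interval from -0.07 to 0.33, and edgeR's quasi-likelihood test gave it an adjusted p of 0.236; with library totals the log2 fold change was -0.13, also not called. TPM values of E2f3 looked different: LPS replicate 2 was at 12.6 TPM and the other LPS libraries at 5.33 and 4.68, while None libraries lay between 5.19 and 5.96. Counts in those LPS libraries were alike, with 324 in replicate 2 and 316 and 284 in the others. Counts per TPM track the effective length that the estimate gives a gene, which depends on the mix of its transcripts. Relative to the library median, that figure was 0.897 for E2f3 in LPS replicate 2 and 1.92 to 1.99 in the other 5 libraries. Among 8656 well-counted genes only 0.878% had a highest value at least 2 times the lowest, and the median was 1.08. E2f3 reached 2.22, and the high TPM of LPS replicate 2 came without more reads.

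E2f4 (chromosome 8, 105297663 to 105305370), the partner of pocket proteins in resting cells, had 73.3, 80.9 and 73.7 CPM in LPS libraries and 67.0, 73.1 and 73.1 CPM in None libraries. It was by far the most abundant member per length, with 46.3 ± 3.62 TPM in LPS and 50.7 ± 2.61 TPM in None (SD, n = 3). Its log2 fold change was 0.10, with a 95% interval from -0.06 to 0.25, and edgeR's quasi-likelihood test gave it an adjusted p of 0.259; with library totals the log2 fold change was -0.16 and on log2(TPM + 1) -0.13, also not called. The CPM of the groups did not quite meet, with the lowest LPS value just above the highest None value, while the TPM of the groups overlapped.

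E2f6 (chromosome 12, 16810963 to 16839742) had 26.0, 28.8 and 28.2 CPM in LPS libraries, against 26.3, 27.0 and 28.3 CPM in None libraries, and the ranges overlapped. Its log2 fold change was 0.02, with a 95% interval from -0.17 to 0.21, and edgeR's quasi-likelihood test gave it an adjusted p of 0.831. With scaling by library totals E2f6 was instead called lower, at -0.24 with an adjusted p of 0.0349 by edgeR. On TPM values E2f6 had 13.4 ± 0.85 TPM in LPS and 15.4 ± 0.371 TPM in None (SD, n = 3), with no overlap and no call by limma. The library-total value lies close to the median shift of all genes under the same scaling. Germline genes that E2f6 is known in mouse to keep silent outside the gonads were almost without reads. Of 14 such genes 10 had 0 counts in all 6 libraries, and the others held 2 counts in LPS and 8 in None, so no change could be read at this depth.

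The atypical repressors fell furthest. E2f7 (chromosome 10, 110745468 to 110787384) had 1.63, 3.78 and 2.31 CPM in LPS libraries, against 9.66, 8.63 and 7.39 CPM in None libraries. These rest on 23, 52 and 32 counts in LPS and 178, 167 and 143 in None. All LPS values were below all None values, and LPS replicate 2 held over 2 times the CPM of LPS replicate 1. For E2f7 the log2 fold change was -1.73 ± 0.24 (SE), and edgeR's quasi-likelihood test gave it an adjusted p of 3.14e-05. Without LPS replicate 2 the log2 fold change of E2f7 was -2.11. On TPM values the groups met, because LPS replicate 2 was at 1.74 TPM and None replicate 3 at 1.73 TPM. Counts per TPM of E2f7 varied 2.23-fold between libraries, as for E2f3, and on counts and CPM the groups stayed apart.

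E2f8 (chromosome 7, 48866429 to 48881596) had 9.24, 15.8 and 10.5 CPM in LPS libraries, against 30.0, 30.6 and 32.8 CPM in None libraries. LPS replicate 2 was again the highest of its group, and still well below every None library. The log2 fold change of E2f8 was -1.39 ± 0.15 (SE), and edgeR's quasi-likelihood test gave it an adjusted p of 5.34e-06. In the GENCODE annotation of the same build, Gm2788 on the opposite strand shares 610 of the 5443 exon bases of E2f8 and held 8 counts in LPS and 53 in None, few beside the counts of E2f8, 493 in LPS and 1777 in None. The genes whose profile over the 6 libraries lay closest to that of E2f8 were Kif20b, a kinesin of cell division, Hmmr, a spindle protein, and Depdc1a. Their root mean square differences from it were 0.0376, 0.0554 and 0.0577 on the log2 scale, among 9407 genes. Closest to E2f7 were Cit, a kinase of cytokinesis, the kinesin gene Kif14 and the exonuclease gene Exo1, at 0.0999, 0.140 and 0.148. LPS replicate 2 was also the library with the smallest falls of cell division genes in its group.

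All 3 pocket protein genes fell. Rbl2 (chromosome 8, 91070057 to 91123844), which encodes p130, the pocket protein most associated with resting cells, had 27.9, 28.2 and 26.8 CPM in LPS libraries, against 51.4, 57.7 and 52.4 CPM in None libraries. The LPS libraries were nearly level with each other, and all lay far below the None libraries. For Rbl2 the log2 fold change was -0.96 ± 0.08 (SE), and edgeR's quasi-likelihood test gave it an adjusted p of 4.75e-07, the lowest of the 10 members. Aktip, on the opposite strand, shares 693 of the 7558 exon bases of Rbl2 and held 831 counts in LPS and 1012 in None.

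Rbl1 (chromosome 2, 157145893 to 157204512), which encodes p107 and is itself a target of E2F, had 28.8, 35.4 and 27.2 CPM in LPS libraries, against 49.9, 49.6 and 48.9 CPM in None libraries. The groups lay well apart, with LPS replicate 2 the highest of its group. For Rbl1 the log2 fold change was -0.70 ± 0.10 (SE), and edgeR's quasi-likelihood test gave it an adjusted p of 4.21e-05.

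Rb1 (chromosome 14, 73195502 to 73325822), the retinoblastoma tumour suppressor, had 45.9, 40.9 and 38.2 CPM in LPS libraries, against 49.9, 52.4 and 53.7 CPM in None libraries. The groups did not overlap, though LPS replicate 1 came close to None replicate 1. For Rb1 the log2 fold change was -0.32 ± 0.08 (SE), and edgeR's quasi-likelihood test gave it an adjusted p of 0.00469. It was -0.58 with library totals and -0.59 on log2(TPM + 1). The lysophosphatidic acid receptor gene Lpar6 lies within Rb1 on the opposite strand and shares 408 of its 6015 exon bases. Lpar6 fell to 10.6 ± 2.16 CPM in LPS, against 51.2 ± 4.18 CPM in None (SD, n = 3), a log2 fold change of -2.27. No source used here says whether counting used strand, and the part of Lpar6 reads in the Rb1 value was not tested.

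**Figure D2:**
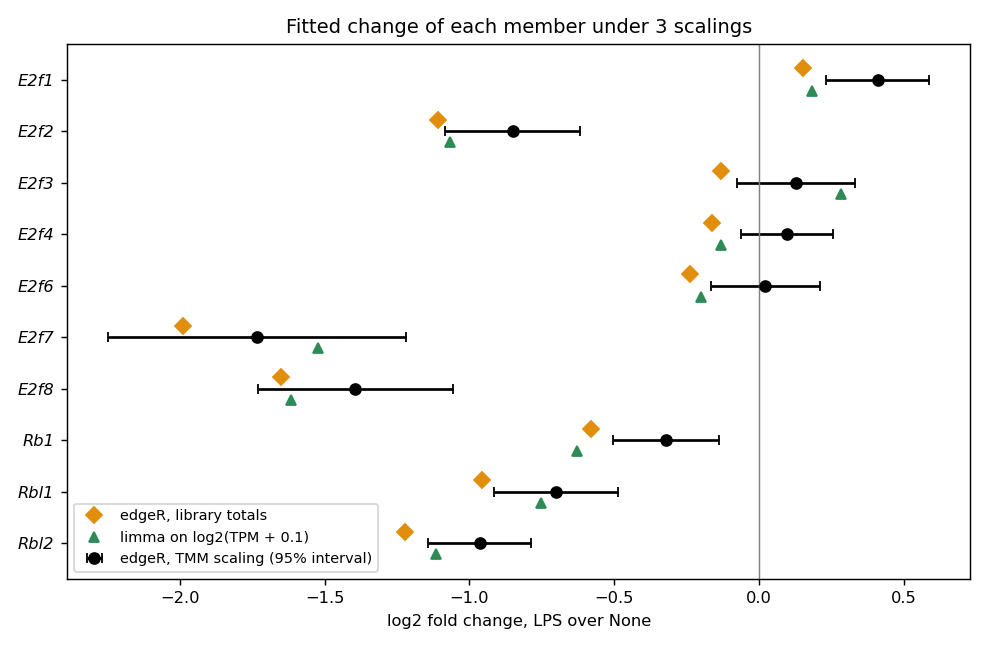
Log2 fold change of LPS over None for each member: edgeR with TMM scaling and its 95% interval (black), edgeR with library totals (orange) and limma on log2(TPM + 0.1) (green). E2f2, E2f7, E2f8, Rb1, Rbl1 and Rbl2 are below 0 under each, E2f1 is above 0 under each, and E2f3, E2f4 and E2f6 change sign between scalings.

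Summed over each family, the 3 pocket protein transcripts held 26.2, 28.3 and 24.9 TPM in LPS libraries, against 44.6, 47.8 and 47.5 TPM in None libraries. The 7 E2F transcripts held 86.8, 106.4 and 88.4 TPM in LPS libraries, against 112.6, 117.1 and 113.0 TPM in None libraries, with the E2f3 value of LPS replicate 2 included. The log2 ratio of the E2F sum over the pocket protein sum was 1.82 ± 0.0908 in LPS and 1.29 ± 0.0429 in None (SD, n = 3). The ranges did not overlap, and the exact two-sided permutation p was 0.1, the smallest possible here. On counts the same ratio was 1.05 ± 0.128 in LPS and 0.64 ± 0.0393 in None.

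Within the pocket proteins, Rbl2 made up 26.4% ± 1.98 of the summed TPM in LPS and 32.6% ± 2.60 in None (SD, n = 3), with no overlap. Rb1 made up 41.1% ± 2.11 in LPS and 36.2% ± 3.26 in None, and these ranges overlapped on TPM, with an exact permutation p of 0.2. Within the E2Fs, E2f7 and E2f8 together made up 4.91% ± 1.40 in LPS and 12.2% ± 0.241 in None, with no overlap. The activators E2f1 to E2f3 together made up 31.2% ± 1.40 in LPS and 30.0% ± 1.93 in None, which overlapped. The lower share of E2f2 stood beside higher shares of E2f1 and E2f3. The E2f3 share was 6.14%, 11.8% and 5.30% in LPS libraries, against 4.97%, 5.09% and 4.59% in None libraries. The high E2f3 TPM of LPS replicate 2 also enters the other E2F shares of that library. On counts E2f3 made up 10.75% ± 0.866 in LPS and 8.35% ± 0.356 in None. E2f4 made up 49.5% ± 2.18 in LPS and 44.3% ± 1.71 in None, with no overlap. Each comparison without overlap had an exact two-sided permutation p of 0.1.

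**Figure D3:**
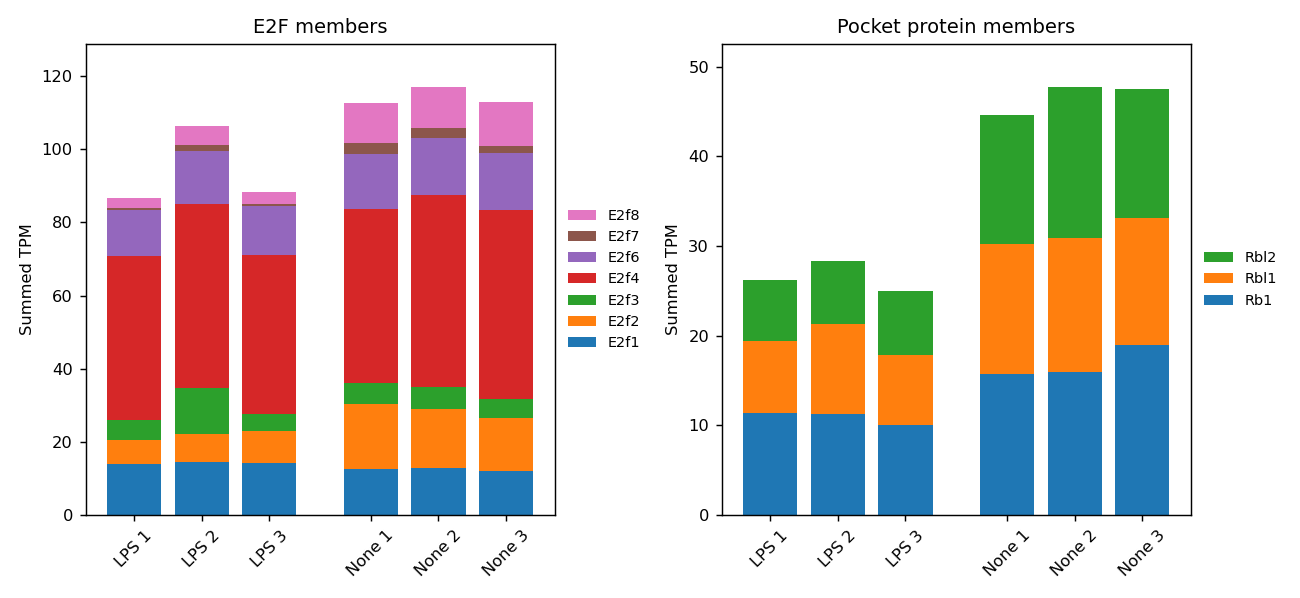
Summed TPM of the E2F members (left panel) and of the pocket protein members (right panel) in each library, LPS left and None right, stacked by gene on linear axes from 0. The pocket protein stacks reach 24.9 to 28.3 TPM in LPS and 44.6 to 47.8 TPM in None, and E2f4 is the tallest block in each E2F stack.

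Ordered by TPM in LPS, E2f4 led, followed by E2f1, E2f6, Rb1, Rbl1, E2f2, E2f3, Rbl2, E2f8 and E2f7. The place of E2f3 rests on LPS replicate 2: without it the E2f3 mean was 5.00 TPM in LPS, below the 6.95 ± 0.166 TPM of Rbl2. Ranges overlapped between E2f1 and E2f6, and for each neighbouring pair from Rb1 down to Rbl2. In None the order was E2f4, Rb1, E2f2, E2f6, Rbl2, Rbl1, E2f1, E2f8, E2f3 and E2f7. There, ranges overlapped for each neighbouring pair from Rb1 to Rbl1 and for E2f1 with E2f8. E2f4 stood clear of every other member in both groups, and E2f7 was the lowest by mean in both.

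Promoter windows from RefSeq on GRCm38.p6, 300 bases each, were matched for 8 members in 10 windows; E2f4 and Rb1 had no entry. They were searched on both strands for the E2F site in the forms TTTCCCGC, TTTCGCGC, TTTGCCGC and TTTGGCGC, for the cell cycle genes homology region TTTGAA, bound by the MuvB complex, and for CCAAT, the box bound by NF-Y. The E2F site was in 4 of the 10 windows, those of E2f2, E2f3, E2f7 and Rbl1, and in 2.26% of 32851 mouse windows of that length. TTTGAA was in 4 windows (E2f2, E2f3, E2f8 and Rbl2), and in 17.9% of all windows. That of E2f2 is in its other window, whose RefSeq start lies 8388 bases inside the gene, and not in the window with its E2F site. CCAAT was in 5 windows, against 37.4% of all windows. The RefSeq start used for E2f1 lies 466 bases inside the gene as the files give it, so its window does not cover the region upstream of the start in the files; it held none of the motifs. A motif match is a description of letters and not evidence of binding.

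Shown here, 5′ to 3′ on the gene's strand, are the 250 bases before the RefSeq start of members with an E2F site there, and of E2f8, with capitals for the E2F site or TTTGAA on either strand. Rbl1 (chr2:157204535-157204784, minus strand) has the E2F site at -18 to -11 and fell, and E2f7 (chr10:110745189-110745438, plus strand) has it at -198 to -191 and fell furthest. E2f3 (chr13:29986064-29986313, minus strand) has both motifs close together, the E2F site at -11 to -4, and was not called. E2f8 (chr7:48881597-48881846, minus strand) has TTTGAA at -20 to -15 and no E2F site in the forms searched. For E2f2 (chr4:136172294-136172323, plus strand) only 30 bases around its site at 40 to 47 after the RefSeq start are given; that start lies 120 bases before the gene start in the files.
Rbl1: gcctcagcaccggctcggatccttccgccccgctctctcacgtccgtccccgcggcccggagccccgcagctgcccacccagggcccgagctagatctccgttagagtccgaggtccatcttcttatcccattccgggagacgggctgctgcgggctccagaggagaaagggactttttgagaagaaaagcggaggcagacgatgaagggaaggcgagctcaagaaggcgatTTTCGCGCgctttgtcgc
E2f7: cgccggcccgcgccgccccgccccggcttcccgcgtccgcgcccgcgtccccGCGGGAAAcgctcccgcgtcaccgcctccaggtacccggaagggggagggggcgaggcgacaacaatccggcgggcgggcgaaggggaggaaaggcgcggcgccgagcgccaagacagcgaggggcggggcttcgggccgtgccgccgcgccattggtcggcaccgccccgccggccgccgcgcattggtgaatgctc
E2f3: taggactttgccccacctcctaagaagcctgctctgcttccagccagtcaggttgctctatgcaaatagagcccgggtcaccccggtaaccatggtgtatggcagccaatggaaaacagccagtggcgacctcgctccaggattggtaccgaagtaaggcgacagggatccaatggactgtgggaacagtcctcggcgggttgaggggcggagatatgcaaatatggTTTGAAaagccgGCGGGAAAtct
E2f8: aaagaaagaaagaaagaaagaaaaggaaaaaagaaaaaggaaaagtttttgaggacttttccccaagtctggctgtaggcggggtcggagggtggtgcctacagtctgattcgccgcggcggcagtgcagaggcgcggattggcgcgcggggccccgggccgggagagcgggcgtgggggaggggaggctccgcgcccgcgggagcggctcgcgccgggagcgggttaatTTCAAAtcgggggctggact
E2f2: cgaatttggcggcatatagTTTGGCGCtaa
Members with the E2F site thus included those that fell (E2f2, E2f7 and Rbl1) and one that was not called (E2f3). E2f8 and Rbl2 fell with none of the exact forms searched in these windows, and sites that differ from those forms were not searched for.

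Both DP partner genes fell. Tfdp2 fell to 4.91 ± 0.383 CPM in LPS, against 32.6 ± 1.47 CPM in None (SD, n = 3), a log2 fold change of -2.73. Tfdp1 fell to 94.7 ± 13.7 CPM in LPS, against 156 ± 6.64 CPM in None, at -0.72. On TPM values the relative fall of Tfdp2 was smaller, with 2.59 ± 0.0643 TPM in LPS and 9.18 ± 0.278 TPM in None. A further family gene outside the 10 members, E2f5, whose protein works with p130, went the other way. E2f5 had 24.6 ± 1.79 CPM in LPS and 11.01 ± 0.452 CPM in None, a log2 fold change of 1.16, and edgeR's quasi-likelihood test gave it an adjusted p of 4.88e-07.

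Among 8 genes of the MuvB core and its partners, 1 was called higher and 3 lower, against 34.0% and 35.1% of all genes. With library totals 0 were higher and 6 lower, a scaling under which 22.5% of all genes were higher and 51.0% lower. The mitotic transcription factor genes Foxm1 (-1.01) and Mybl2 (-0.82) fell, as did the histone-binding Rbbp4 (-0.24), on the log2 scale. Lin37, a MuvB subunit, was called higher at 0.32 (adjusted p of 0.0284 by edgeR), and lost that call with DESeq2, with library totals, on TPM values and without LPS replicate 1 or 3 or None replicate 2 or 3; on log2(TPM + 1) its value was -0.04. Lin9 (-0.20), Lin52 (0.10), Lin54 (0.01) and the DREAM-assembling kinase Dyrk1a (0.06) were not called.

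Of 10 cyclin, kinase and phosphatase genes that act on pocket proteins, 4 rose and 3 fell, near the shares of all genes (34.0% higher and 35.1% lower), and with library totals 3 rose and 3 fell, against 22.5% and 51.0%. Ccnd2, a D-type cyclin, rose by a log2 fold change of 1.57 and its kinase partner Cdk6 by 1.17, while the S-phase cyclin Ccna2 (-1.70) and the E-type cyclin Ccne2 (-1.20) fell. The other E-type cyclin gene, Ccne1, rose by 0.93 on the same scale, and is named here after its value was seen. On TPM values the rise of Cdk6 was larger, with 115.9 ± 22.1 TPM in LPS and 17.4 ± 1.29 TPM in None (SD, n = 3). Of the 4 tested inhibitors of these kinases, Cdkn1a (p21) rose 1.52 to 911 ± 87.4 CPM in LPS, against 319 ± 19.4 CPM in None, and Cdkn2d rose 0.46. The Cdkn2d call was lost with library totals and on TPM values. Cdkn2c (-0.89) and Cdkn1b (-0.42) fell. Cdkn1c, Cdkn2a and Cdkn2b had 0 counts in all 6 libraries. At 3 counts over a group that allows up to 0.0657 CPM in LPS and 0.0574 CPM in None, on library totals without TMM scaling.

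No gene on the lists of targets for G1/S and for G2 and mitosis was called higher. Both lists were chosen with earlier results of these data known, so their counts are descriptive. Of 40 genes of the transition from G1 into S phase, 32 were called lower and 0 higher, against 35.1% lower and 34.0% higher among all genes tested. At an unadjusted p under 0.05 in edgeR 33 were lower and 0 higher, and by DESeq2 31 were lower and 0 higher, where 25.7% of all genes it tested were lower. Their median log2 fold change was -0.74, with Dscc1 (-1.91), the replicative polymerase gene Pole (-1.20), the checkpoint kinase Chek1 (-1.11) and the helicase subunit Mcm7 (-1.10) the lowest fitted. The 8 not called, named after their values were seen, were Pcna, Rrm2, Cdc45, Orc1, Gins1, Gins2, Rfc3 and Tipin, with fitted values from -0.37 to 0.16. With library totals 38 of 40 were lower, where 51.0% of all genes were.

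Targets of DREAM and of B-MYB with FOXM1, which act in G2 and mitosis, were also listed with earlier results of these data known. They were called lower in 25 of 25, against 35.1% of all genes. Their median log2 fold change was -1.50. They were led by the mitotic cyclin Ccnb2 (-2.53), the kinetochore gene Cenpf (-2.43), the activator of the anaphase-promoting complex Cdc20 (-2.14) and the spindle kinesin Kif11 (-2.00). All 25 stayed lower in each of the alternatives, including those that leave out a library. With library totals 51.0% of all genes were called lower, and on log2(TPM + 1) 42.8%. Relative to the None mean, the mean log2 CPM of this list was -1.78, -1.08 and -1.48 in LPS libraries, and that of the earlier list was -0.85, -0.43 and -0.73. LPS replicate 2 was the least lowered in both lists, as it was for E2f7, E2f8 and Rbl1, and whether one follows from the other was not tested.

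**Figure D4:**
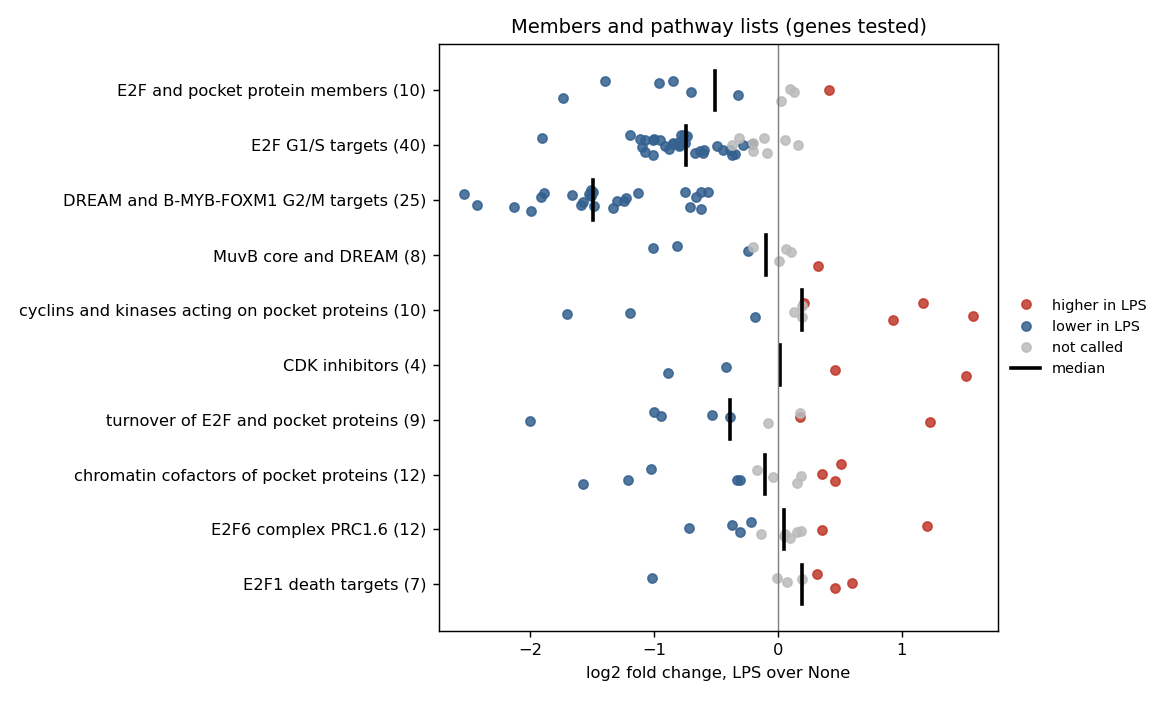
Log2 fold change of LPS over None for the 10 members and for each tested gene of the pathway lists, with the number tested in parentheses; colours mark the call by edgeR and black bars the median. The target lists of E2F and DREAM lie below 0 with medians of -0.74 and -1.50, while the cyclin, inhibitor and Polycomb partner lists spread to both sides.

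Of 9 genes that control the turnover of E2F and pocket proteins, 5 fell and 2 rose, against 35.1% lower and 34.0% higher among all genes, and with library totals 6 fell and 1 rose, against 51.0% and 22.5%. Fbxo5, which inhibits the anaphase-promoting complex and is an E2F target, fell (log2 fold change of -2.00), and Ccnf (-0.998), whose cyclin F directs E2F proteins to destruction, and the ubiquitin ligase cofactor Cks1b (-0.95) also fell. The p53 ligase Mdm2, which can also act on the retinoblastoma protein, rose 1.23. Fzr1 was called higher at 0.18, with an adjusted p of 0.0489 by edgeR, and was -0.08 with library totals; RLE scaling and leaving out LPS replicate 1 kept that call and the other alternatives lost it. Among 12 chromatin cofactors of pocket proteins, 3 rose and 5 fell, near the shares of all genes (34.0% higher and 35.1% lower). With library totals 1 rose and 7 fell, against 22.5% and 51.0% of all genes. With RLE scaling 5 rose and 5 fell, against 35.1% and 33.7% of all genes. The genes that fell included Arid4a (-1.58), the remodeller Smarca2 (-1.21) and the histone methyltransferase Kmt5b (-1.02), while the remodeller Smarca4 rose 0.51.

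Of 12 genes of the Polycomb complex that holds E2f6, 2 were called higher and 4 lower, against 34.0% and 35.1% of all genes. With library totals 1 was higher and 6 lower, against 22.5% and 51.0% of all genes. With RLE scaling 4 were higher and 4 lower, against 35.1% and 33.7% of all genes. Yaf2 rose 1.21 and Hdac2 0.36, of which the Hdac2 call was lost with library totals and on TPM values, and L3mbtl2 (-0.72) and the heterochromatin protein gene Cbx3 (-0.37) fell. Of 9 genes that E2F1 can switch on in cell death, 7 were tested, with 3 called higher and 1 lower, against 34.0% and 35.1% of all genes. Bbc3 (0.60) and Pmaip1 (0.31) were among those called higher, though neither was called on log2(TPM + 1). Pmaip1 was also not called with library totals or without LPS replicate 3 or None replicate 1. Bbc3 had 72.1, 71.2 and 110.8 CPM in LPS libraries, so LPS replicate 3 weighs most in its value. Casp8ap2 fell (-1.02). Trp73 had 1 count in each group and Bik 11 in LPS and 2 in None, too few for the test.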

How the data were processed

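RNA was sequenced from 9 labelled samples in 3 groups of 3, and the 6 columns whose names matched the LPS and None samples were used, while 12 other library columns in each table were not used. Expected counts per gene were deposited by the authors, and TPM values were deposited by the authors in a separate table. STAR 2.7.10a, RSEM 1.3.1 and the build GRCm38 are named in the submitters' processing notes, and reads were cleaned with SOAPnuke per the labels' protocols. These estimated counts hold fractions and were rounded to whole numbers before testing. No source used here says whether counting used strand. Start positions were raised by 1 from the files' 0-based values.

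Counts were filtered with filterByExpr (count minimum 10, total minimum 15), scaled by TMM and tested with edgeR 4.0.16's quasi-likelihood test, LPS against None, in R 4.3.3, with Benjamini-Hochberg adjustment over 11916 genes and a threshold of 0.05. The test was tried on simulated data first. The 530 genes without a symbol held 0.0231% to 0.0318% of counts. Standard errors were derived from the test statistic, and the common biological coefficient of variation was 8.32%. All replicate pairs differed by more than sampling noise. TPM values were used for levels between genes and for sums, with exact permutation tests over libraries. Alternatives used RLE factors, library totals, DESeq2 1.42.0, other filters, limma 3.58.1 on log2(TPM + 1) or log2(TPM + 0.1), the left-out libraries and the replicate number as a block.

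The members and the gene lists were chosen with earlier results of these data known. All members were named, with up to 4 tested genes of each list by the size of the log2 fold change and the 3 genes nearest in profile to each member that changed at least 2-fold. The MuvB genes not called, the 8 uncalled G1/S targets, Ccne1 and Fzr1 were named after their values were seen. Some genes of the lists are not reported here.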

Additional observations from a re-analysis of the deposited data

How the results depend on the processing

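The 6 members called lower kept their direction in every alternative, and their calls in each except log2(TPM + 1) without a filter, where E2f7 was at -0.88 with an adjusted p of 0.0546 by limma. E2f1 kept its direction and lost its call in 4 alternatives, with 0 members called higher under library totals, on log2(TPM + 1) with or without a filter and on log2(TPM + 0.1). Its adjusted p by edgeR or limma there ran from 0.0743 to 0.124. E2f6 turned to -0.24 under library totals. Genes called higher numbered 2679 with library totals, 2672 on log2(TPM + 1) and 2656 on log2(TPM + 0.1), against 4052. On shares of summed counts the Rb1 difference was 8.30 percentage points and that of E2f7 with E2f8 was -9.43. Leaving out each library gave 7 called members every time, and 7507 to 8103 called genes. Same-numbered libraries correlated at 0.08, -0.02 and 0.01, and not every library correlated best with its own number. That gave no sign of pairing by number, and with 3 libraries in each group it cannot exclude it. The replicate block gave 8362 called genes against 8232, with the same 7 members. The scaling alternatives set the limit for small changes, and E2f7 rests on 23 to 52 counts in each LPS library.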
